A study of Homo sapiens with 6 samples.

Results

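The genes of cholesterol synthesis, of fatty acid synthesis and of their shared control by the sterol regulatory element-binding proteins were described after knockdown of FUBP1. The cells were labelled as MG63, an established human osteosarcoma line. The gene set held 36 protein-coding genes, chosen by name from the 58735 genes of the deposited table, of which 19951 were protein-coding. It comprised 18 enzymes of the sterol branch, 8 enzymes of the fatty acid branch, 5 SREBP regulators, the LXR receptor genes with 1 target (3 genes), and 2 genes of sterol transport and phosphatidate handling. All 36 were found and all passed the filter on low counts, so that each entered the test over 16116 genes.

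Poly-A RNA was sequenced 48 h after transfection. The siFUBP1 group (3 samples) received siRNA against FUBP1 and the siMock group (3 samples) received a negative control; all 6 samples were labelled as MG63 cells, and no drug treatment was given in the labels. Which of the FUBP1 siRNAs was used for sequencing was not given in the sources used here, and the knockdown was transient, with FUBP1 mRNA remaining at 18.4% of the siMock level (log2 fold change -2.44, SE 0.0895). The libraries held 16309900 to 17484313 counts. Of 8 osteoblast-lineage and mesenchymal markers, COL1A1 and VIM had 769 or more counts in every sample and RUNX2 had 6 to 8 in siMock and 39 to 97 in siFUBP1, whereas COL1A2 had no count in any sample and SPARC, ALPL, SP7 and BGLAP had 13 or fewer in each. Of 8 markers of other cell types, ALB and ADIPOQ had no count in any sample, PTPRC, CD68 and PECAM1 had 11 or fewer in each, whereas EPCAM had 59 to 83 counts and the epithelial keratins KRT8 and KRT18 were abundant. The near absence of COL1A2 and SPARC beside abundant keratins goes against the labelled lineage, and the identity of the line was not tested. The summed level of EPCAM, KRT8 and KRT18, the 3 of these 8 genes that passed the filter on low counts, was 2527 to 2900 CPM (counts scaled to a common library size) in siMock. In siFUBP1 this sum was 1366 to 1497 CPM, and its part in the results below was not tested. In bulk RNA, fewer cells expressing a gene and less of its RNA per cell cannot be told apart.

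Cholesterol is built from acetyl-CoA by the mevalonate pathway, through squalene and lanosterol, and fatty acids are built from the same precursor by ACLY, ACACA and FASN and are then elongated and desaturated. SREBP precursors sit in the endoplasmic reticulum membrane with the escort protein SCAP, which INSIG proteins hold back when sterols are plentiful; when sterols are low the precursors are carried to the Golgi, cleaved, and activate the genes of both branches. SREBF1 encodes the form known chiefly for fatty acid genes and SREBF2 the form known chiefly for sterol genes, and the oxysterol receptors LXR (NR1H2, NR1H3) are known to raise SREBF1, SCD and sterol efflux genes.

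The promoters of 4 genes are shown because these genes span the pattern described below: HMGCS1 and SCD were among the genes that fell most in their branches, INSIG1 was higher, and SREBF2 is the sterol-branch factor. Each runs from 250 bases before to 50 bases after the RefSeq start site, in the GRCh38.p14 build, written 5′ to 3′ on the gene's strand. Capitals mark the NF-Y motif CCAAT on either strand (written CCAAT or ATTGG) and the core of the sterol regulatory element, TCACNCCAC.
HMGCS1 (chr5:43313363-43313662, minus strand): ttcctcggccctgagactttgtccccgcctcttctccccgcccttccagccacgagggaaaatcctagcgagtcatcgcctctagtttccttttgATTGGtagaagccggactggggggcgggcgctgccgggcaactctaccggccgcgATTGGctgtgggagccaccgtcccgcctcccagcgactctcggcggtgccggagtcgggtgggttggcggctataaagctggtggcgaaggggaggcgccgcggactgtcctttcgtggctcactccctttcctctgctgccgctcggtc
SCD (chr10:100346983-100347282, plus strand): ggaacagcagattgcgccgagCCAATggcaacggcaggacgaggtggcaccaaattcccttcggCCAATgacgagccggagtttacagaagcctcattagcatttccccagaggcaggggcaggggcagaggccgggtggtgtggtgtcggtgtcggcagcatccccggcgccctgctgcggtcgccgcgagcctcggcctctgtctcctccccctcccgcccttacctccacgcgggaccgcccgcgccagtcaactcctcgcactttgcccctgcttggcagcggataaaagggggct
INSIG1 (chr7:155297628-155297927, plus strand): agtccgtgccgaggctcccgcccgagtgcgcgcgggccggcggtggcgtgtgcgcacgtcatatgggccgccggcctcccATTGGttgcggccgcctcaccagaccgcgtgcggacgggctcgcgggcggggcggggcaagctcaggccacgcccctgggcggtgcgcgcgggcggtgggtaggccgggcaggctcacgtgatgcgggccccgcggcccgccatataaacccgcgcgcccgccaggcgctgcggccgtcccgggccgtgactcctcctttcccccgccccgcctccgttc
SREBF2 (chr22:41832855-41833154, plus strand): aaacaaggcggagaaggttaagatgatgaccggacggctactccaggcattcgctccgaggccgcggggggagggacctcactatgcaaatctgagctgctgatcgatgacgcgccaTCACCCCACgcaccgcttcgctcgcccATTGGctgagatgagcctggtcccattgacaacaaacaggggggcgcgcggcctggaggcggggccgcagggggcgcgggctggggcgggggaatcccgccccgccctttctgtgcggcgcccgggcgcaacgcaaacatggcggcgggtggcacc

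RefSeq promoters were matched for 32 of the 36 genes. ACAT2, FASN, FDFT1 and SQLE had none. The core TCACNCCAC was found, on both strands searched, only in the SREBF2 promoter, as TCACCCCAC starting 133 bases before the start site, that is in 3.1% of the matched genes and in 1.2% of all 14896 promoters. CCAAT was held by 19 of the 32 (59.4%, against 36.4% of all promoters), the Sp1 motif GGGCGG by 28 (87.5% against 59.5%), and the E-box CACGTG by 5 (15.6% against 8.9%). The searched motifs were exact letters, and promoters of genes with large and with small changes both held them: HMGCS1 held a pair of CCAAT matches and fell, whereas MVK held 5 and did not pass the test. These matches are descriptions of the sequence, and binding was not tested.

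The question of the comparison was whether genes of lipid synthesis changed when FUBP1 was reduced, and whether the sterol and fatty acid branches did so alike. At an adjusted p below 0.05 (edgeR quasi-likelihood test, Benjamini-Hochberg over all genes tested), 18 of the 36 genes were lower and 6 were higher in siFUBP1, and 12 did not pass. Over all tested genes 30.1% were lower and 30.1% were higher by the same rule. At a log2 fold change beyond 1 in addition, 5 of the 36 were lower and none was higher, where 9.13% of all tested genes were lower and 8.16% were higher. For 19 of the 36 the highest siFUBP1 value was under the lowest siMock value (31.7% of all tested genes), and for 6 the lowest siFUBP1 value was over the highest siMock value (32.2%). The median log2 fold change was -0.21 over the 36 genes and 0.002 over all tested genes.

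The branches differed in their counts. In the fatty acid branch 7 of 8 genes were lower and 1 was higher, with a median log2 fold change of -0.72. In the sterol branch 9 of 18 were lower, 3 were higher and 6 did not pass, with a median of -0.23. A log2 fold change below -0.5 was reached by 6 of the 8 fatty acid genes and by 3 of the 18 sterol genes, with NSDHL just outside at -0.4977. After correction for GC content and gene length it was reached by 5 and by 6. The share of all tested genes below -0.5 was not computed, so these counts cannot be set against it. Because the members of a branch are not replicates of a condition, the difference between the branches is given as a description. The deposited FPKM values, computed from the same counts and scaled per length, were summed by branch in each sample, without GC correction. The summed FPKM of the fatty acid branch was 1.42, 1.53 and 1.5 times that of the sterol branch in siMock replicates 1, 2 and 3. In siFUBP1 replicates 1, 2 and 3 it was 0.861, 0.906 and 0.896 times. SCD alone made up 65.1% of the summed mean FPKM of the fatty acid branch in siMock and 59.7% in siFUBP1, so these ratios largely follow SCD. The sums for the sterol branch themselves were 616.4 to 644.3 FPKM in siMock and 430.0 to 533.7 FPKM in siFUBP1, and those for the fatty acid branch 876.0 to 978.2 FPKM and 389.6 to 478.3 FPKM. Neither sum overlapped between the groups.

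**Figure D1:**
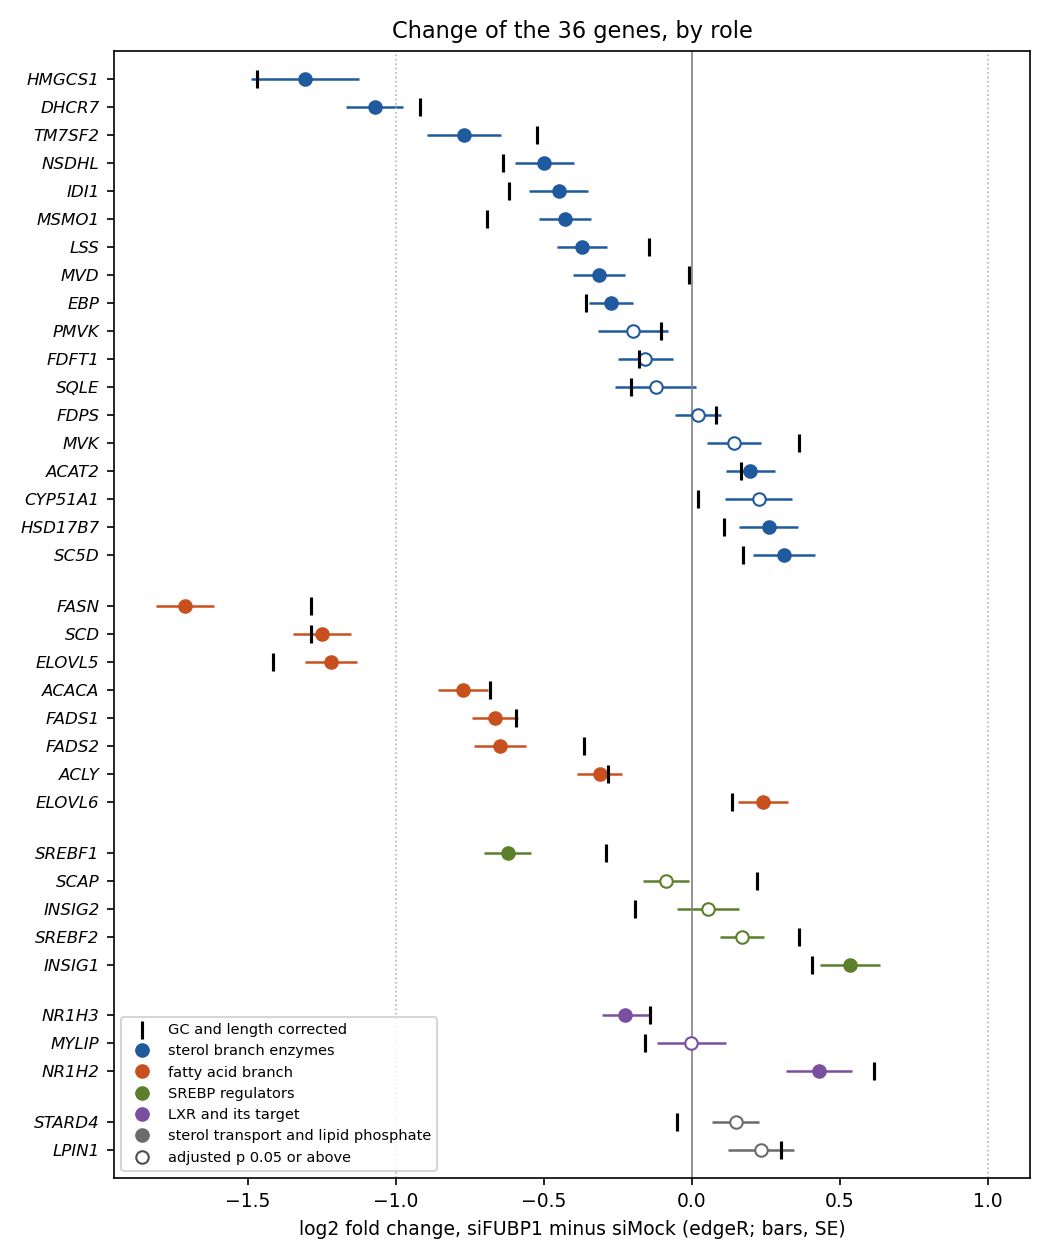
The x axis gives the log2 fold change (siFUBP1 minus siMock) of each of the 36 genes with its SE, grouped and coloured by role; filled points passed an adjusted p of 0.05, open points did not, and black ticks give the value after correction for GC content and gene length. All fatty acid genes except ELOVL6 sit left of 0, from -0.31 to -1.71, whereas the sterol enzymes spread from -1.31 to 0.31.

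In the fatty acid branch the largest change before correction for GC content was that of FASN (ENSG00000169710, chromosome 17, 82078333 to 82098332, minus strand), the synthase that assembles palmitate. FASN stood at 978.5, 1092 and 896.8 CPM in siMock replicates 1, 2 and 3 and at 317.1, 254.0 and 335.1 CPM in siFUBP1 replicates 1, 2 and 3. The groups did not overlap, and the siFUBP1 mean was 30.5% of the siMock level (log2 fold change -1.71, SE 0.0986, edgeR adjusted p = 2.6e-13). FASN is rich in GC (65.3%), and genes above 60% GC had a median log2 fold change of -0.25 over all tested genes, against 0.15 for genes of 40% GC or less. After correction for GC content and length the value for FASN was -1.29 (edgeR adjusted p = 9.3e-06), and the largest value of the branch was then that of ELOVL5, at -1.41.

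SCD (ENSG00000099194, chromosome 10, 100347124 to 100364834, plus strand), the desaturase that makes monounsaturated fatty acids, was the most abundant of the 36 genes per length, at 611.9 ± 49.6 FPKM (SD, n = 3) in siMock. It made up 65.1% of the summed mean FPKM of its branch in siMock and 59.7% in siFUBP1. Its level was 3012, 3429 and 3518 CPM in the siMock samples and 1388, 1224 and 1580 CPM in the siFUBP1 samples. No siFUBP1 sample came near the siMock range, and SCD fell by 1.25 on the log2 scale (SE 0.0972, edgeR adjusted p = 2.9e-11), a value little moved by the GC and length correction (-1.29).

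ELOVL5 (ENSG00000012660, chromosome 6, 53267398 to 53349179, minus strand), an elongase of polyunsaturated fatty acids, was at 284.1, 285.3 and 293.3 CPM in siMock and 117.1, 109.8 and 143.8 CPM in siFUBP1. The siMock samples were nearly equal and the siFUBP1 samples were lower throughout (log2 fold change -1.22, SE 0.0875, edgeR adjusted p = 6.1e-12). The other elongase of the set, ELOVL6, which extends palmitate, went the other way, at 43.51 to 45.66 CPM in siMock and 51.14 to 54.24 CPM in siFUBP1 (log2 fold change 0.24, SE 0.0840, edgeR adjusted p = 0.016). That call did not hold after the GC and length correction (0.13, edgeR adjusted p = 0.12).

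The remaining fatty acid genes fell less. ACACA, the acetyl-CoA carboxylase that makes malonyl-CoA, was at 58.6% of the siMock level (log2 fold change -0.77). The desaturases FADS1 and FADS2, which overlap on opposite strands of chromosome 11 and act on polyunsaturated fatty acids, were at 63.1% and 63.8% (log2 fold changes -0.66 and -0.65). These factors were near-equal, although after the GC and length correction the log2 fold changes were -0.59 for FADS1 and -0.36 for FADS2, and FADS1 was the more abundant per length, at 51.9 FPKM against 4.34 FPKM for FADS2 in siMock. ACLY, which makes cytosolic acetyl-CoA for both branches, was at 80.6% (log2 fold change -0.31, edgeR adjusted p = 9.3e-04). In each of these 4 genes no siFUBP1 sample reached the siMock range.

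**Figure D2:**
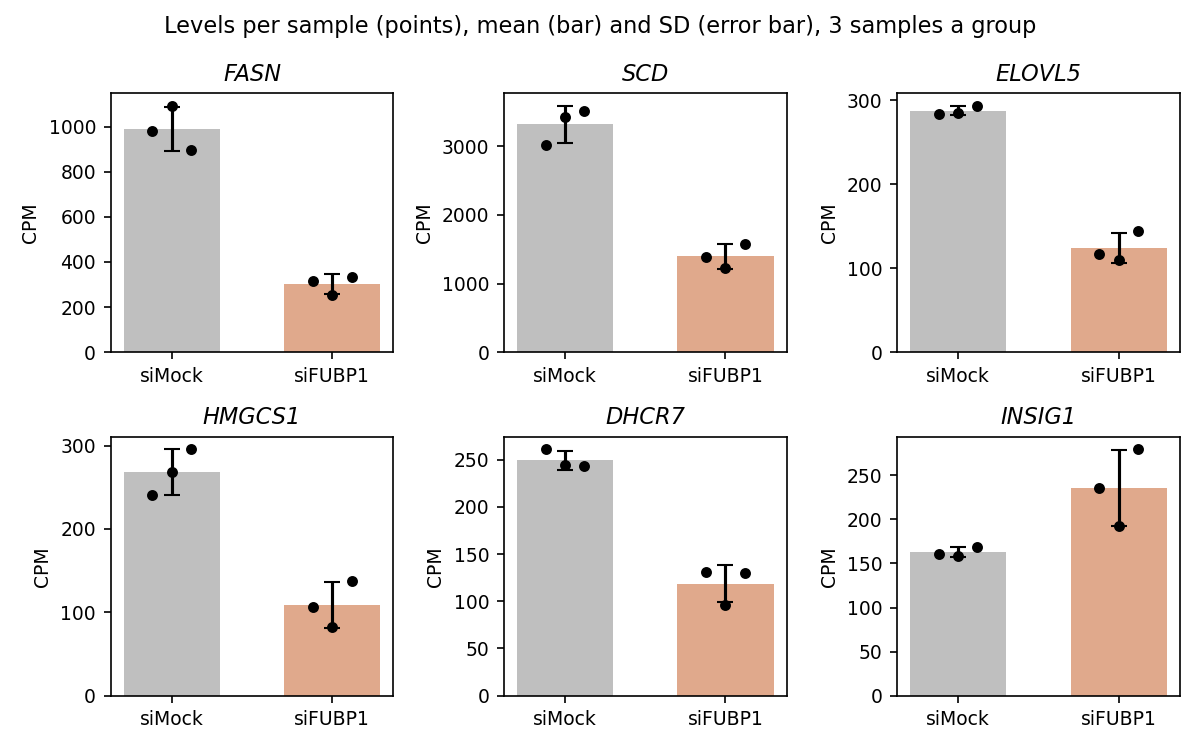
Bars give the mean CPM of 3 samples, error bars the SD and points the samples, for the 5 genes lower beyond a log2 fold change of 1 and for INSIG1, each on its own y axis from 0. In the first 5 panels the groups of points do not overlap and the siFUBP1 points are the lower; for INSIG1 the siFUBP1 points, at 192.6 to 279.5 CPM, lie above the siMock points at 158.8 to 169.1 CPM and are spread more widely.

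In the sterol branch the largest changes were those of 2 genes, HMGCS1 and DHCR7, the only ones there beyond a log2 fold change of 1. HMGCS1 (ENSG00000112972, chromosome 5, 43289395 to 43313512, minus strand), the cytosolic synthase that makes HMG-CoA and a well-known SREBP target, was at 241.1, 268.3 and 295.5 CPM in siMock and 106.0, 82.33 and 137.0 CPM in siFUBP1. The groups did not overlap, but the siFUBP1 samples differed among themselves by 1.66-fold, the widest spread of any of the 36 genes in that group. HMGCS1 fell by 1.31 on the log2 scale (SE 0.183, edgeR adjusted p = 6.1e-04). After the GC and length correction its value was -1.47 (edgeR adjusted p = 7.55e-04), then the largest fall of the 36 genes. DHCR7 (ENSG00000172893, chromosome 11, 71428193 to 71452868, minus strand), the reductase of the last step to cholesterol, was at 261.0, 244.2 and 243.1 CPM in siMock and 130.9, 95.71 and 129.8 CPM in siFUBP1. It was lower in every siFUBP1 sample (log2 fold change -1.07, SE 0.0959, edgeR adjusted p = 1.6e-09) and stood at -0.92 after the GC and length correction and at -0.93 without siFUBP1 replicate 2, in both cases short of a log2 fold change of -1.

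The other sterol enzymes diverged. Of the mevalonate and isoprenoid steps, IDI1, the isopentenyl diphosphate isomerase, was lower (log2 fold change -0.45, edgeR adjusted p = 5.8e-04), and MVD, the mevalonate diphosphate decarboxylase, was lower at -0.31 (edgeR adjusted p = 0.0034). The MVD call did not hold after the GC and length correction, where its value was -0.01. The kinases MVK and PMVK (log2 fold changes 0.14 and -0.20) and the farnesyl diphosphate synthase FDPS (0.02) did not pass the test. After the correction MVK was higher at 0.36 (edgeR adjusted p = 3.9e-04). ACAT2, the cytosolic thiolase that feeds HMGCS1, was higher at 0.20 (edgeR adjusted p = 0.042), with overlapping groups.

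At the squalene steps FDFT1, the squalene synthase, and SQLE, the squalene epoxidase, did not pass the test. SQLE was at 68.87, 71.32 and 74.48 CPM in siMock and at 63.89, 50.74 and 82.54 CPM in siFUBP1. The siFUBP1 samples of SQLE fell on both sides of the siMock range, and its log2 fold change of -0.12 (SE 0.138) became -0.32 without siFUBP1 replicate 3 and 0.04 without siFUBP1 replicate 2. LSS, which closes the ring to lanosterol, was lower at -0.37 (edgeR adjusted p = 4.1e-04), a call not held after the GC and length correction (-0.15, edgeR adjusted p = 0.098).

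Among the enzymes after lanosterol, 4 were lower besides DHCR7. TM7SF2, a sterol reductase, was lower at -0.77 (-0.52 after the GC and length correction). The demethylation enzymes NSDHL and MSMO1 were lower at -0.50 and -0.43 (-0.64 and -0.69 after the GC and length correction). The isomerase EBP was lower at -0.27 (-0.36 after that correction). MSMO1 was the most abundant sterol enzyme per length, at 140.7 ± 8.15 FPKM in siMock and 105.0 ± 13.4 FPKM in siFUBP1 (SD, n = 3). HSD17B7 and SC5D, which act in the same stretch of the pathway, were higher at 0.26 and 0.31 (edgeR adjusted p = 0.028 and 0.015). Their groups overlapped, and neither call held after the GC and length correction (0.11 and 0.17). CYP51A1, the lanosterol demethylase, was at 14.58 to 15.31 CPM in siMock and 16.73 to 18.18 CPM in siFUBP1; its groups did not overlap, but its log2 fold change of 0.23 did not pass the test (edgeR adjusted p = 0.085) and was 0.02 after that correction.

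The regulators did not follow one direction. SREBF1 (ENSG00000072310, chromosome 17, 17810399 to 17837002, minus strand) was at 323.2, 297.2 and 265.7 CPM in siMock and 191.0, 197.8 and 187.0 CPM in siFUBP1. All siFUBP1 samples were below the siMock samples and were close to each other (log2 fold change -0.62, SE 0.0805, edgeR adjusted p = 2.4e-07). SREBF1 has a GC content of 62.8%, and the GC and length correction brought its value to -0.29 (edgeR adjusted p = 1.4e-04). SREBF2 (ENSG00000198911, chromosome 22, 41833079 to 41907308, plus strand) was at 257.7, 260.3 and 253.0 CPM in siMock and 299.8, 281.8 and 284.9 CPM in siFUBP1. Its groups did not overlap, yet its log2 fold change of 0.17 (SE 0.0740) did not pass (edgeR adjusted p = 0.052). After the GC and length correction it did, at 0.36 (edgeR adjusted p = 9.8e-06). SREBF2 also passed with DESeq2 (0.18, DESeq2 adjusted p = 0.018), under upper-quartile scaling, in both limma runs and at a mean of at least 50 counts. In 8 of the 16 alternatives it did not pass.

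INSIG1 (ENSG00000186480, chromosome 7, 155297776 to 155310235, plus strand), which retains the SCAP complex and is itself a known SREBP target, was at 160.8, 158.8 and 169.1 CPM in siMock and 235.3, 192.6 and 279.5 CPM in siFUBP1. Every siFUBP1 sample was higher, and INSIG1 had the largest increase of the 36 genes, except that NR1H2 exceeded it after the GC and length correction (0.62 against 0.41) and on leaving out siMock replicate 1 (0.56 against 0.52) or siFUBP1 replicate 3 (0.52 against 0.39) (log2 fold change 0.53, SE 0.0999, edgeR adjusted p = 1.0e-04). INSIG2, its relative, was at 37.75, 28.89 and 32.47 CPM in siMock and 32.03, 32.63 and 38.15 CPM in siFUBP1. These groups overlapped, and its log2 fold change of 0.05 turned to -0.19 after the GC and length correction, with neither value passing. SCAP was at 121.0, 107.5 and 108.6 CPM in siMock and 107.1, 107.0 and 103.1 CPM in siFUBP1. It did not pass at -0.09 (edgeR adjusted p = 0.34) but was higher at 0.22 after the correction (edgeR adjusted p = 0.0033), so that its direction depended on that step.

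The LXR genes moved in opposite directions. NR1H2, which encodes LXR beta, was at 66.24, 52.84 and 49.57 CPM in siMock and 73.60, 87.81 and 65.76 CPM in siFUBP1. It was higher (log2 fold change 0.43, SE 0.111, edgeR adjusted p = 0.0025), although the lowest siFUBP1 sample lay just under the highest siMock sample. NR1H3, which encodes LXR alpha, was at 83.52, 88.44 and 80.18 CPM in siMock and 75.43, 71.26 and 69.14 CPM in siFUBP1. These groups did not overlap, and NR1H3 was lower at -0.22 (SE 0.0794, edgeR adjusted p = 0.017), a call not held after the GC and length correction (-0.14, edgeR adjusted p = 0.057). MYLIP, an LXR target that marks lipoprotein receptors for degradation, was at 13.66 to 15.77 CPM in siMock and 14.49 to 14.74 CPM in siFUBP1, with a log2 fold change of -0.00 (SE 0.118). STARD4, a cytosolic sterol carrier, and LPIN1, a phosphatidate phosphatase, did not pass the test at 0.15 and 0.23 (edgeR adjusted p = 0.11 and 0.073), though for each every siFUBP1 sample was above every siMock sample.

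**Figure D3:**
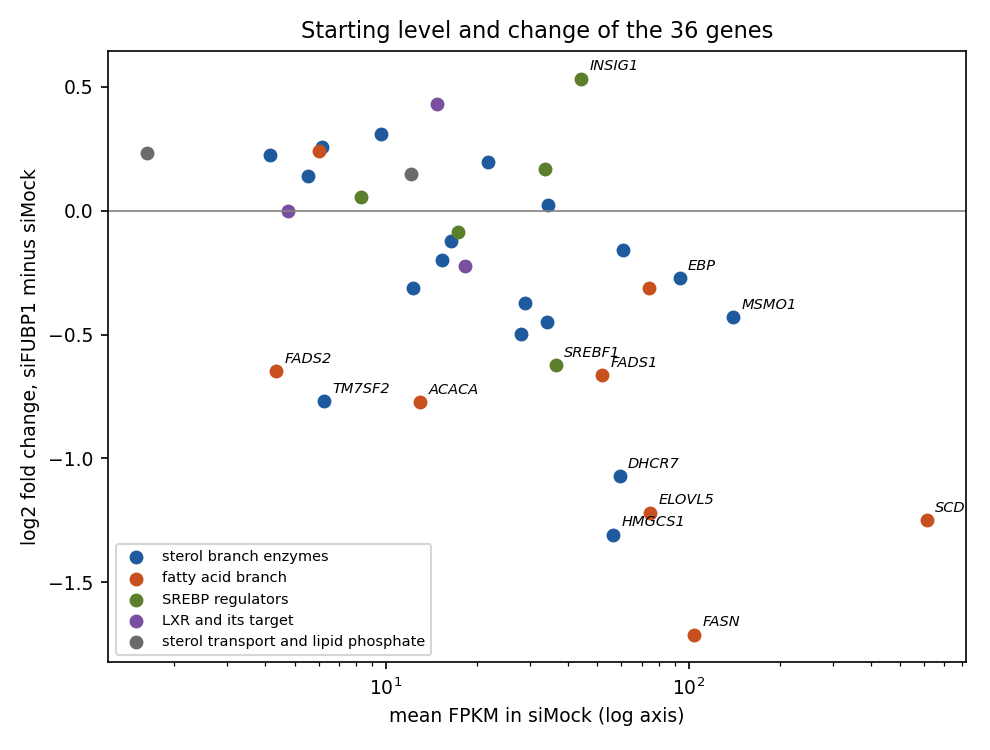
The x axis, on a log scale, gives the mean deposited FPKM in siMock and the y axis the log2 fold change (siFUBP1 minus siMock), with one point for each of the 36 genes coloured by role. SCD, at 611.9 FPKM, stands to the right of all others, and genes of like starting level, such as HMGCS1 at 56.4 FPKM and FDFT1 at 60.9 FPKM, differ in change.

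The samples within the siFUBP1 group differed in a like pattern in the enzymes of both branches. Replicate 2 was the lowest of the 3 siFUBP1 samples for 15 of 18 sterol enzymes (83.3%) and for 8 of 8 fatty acid genes, where it was the lowest for 34.3% of all tested genes. Replicate 3 was the highest for 13 of 18 sterol enzymes and for 6 of 8 fatty acid genes, against 35.8% of all tested genes. The median deviation of the sterol enzymes from their siFUBP1 mean was -0.18 in replicate 2 and 0.13 in replicate 3 on the log2 scale, and that of the fatty acid genes was -0.09 and 0.05. After HMGCS1, the widest spreads were those of SQLE at 1.63-fold and INSIG1 at 1.45-fold. Replicate 3 was the highest for 2 and the lowest for 2 of the 5 SREBP regulators. It was the lowest for all 3 genes of the LXR list. The FUBP1 level was 44.35, 43.36 and 53.04 CPM in siFUBP1 replicates 1, 2 and 3. Replicate 3 thus had both the most FUBP1 mRNA and mostly the highest levels of the branch enzymes. With 3 samples this ordering could not be tested, and its part in the results was not tested. In siMock, no sample was the lowest or the highest for more than 8 of the 18 sterol enzymes. Of the 8 fatty acid genes, siMock replicate 1 was the lowest for 5 (62.5%, against 34.3% of all tested genes). Replicate 2 of siMock was the highest for 5 of these 8 (62.5%, against 28.6%).

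**Figure D4:**
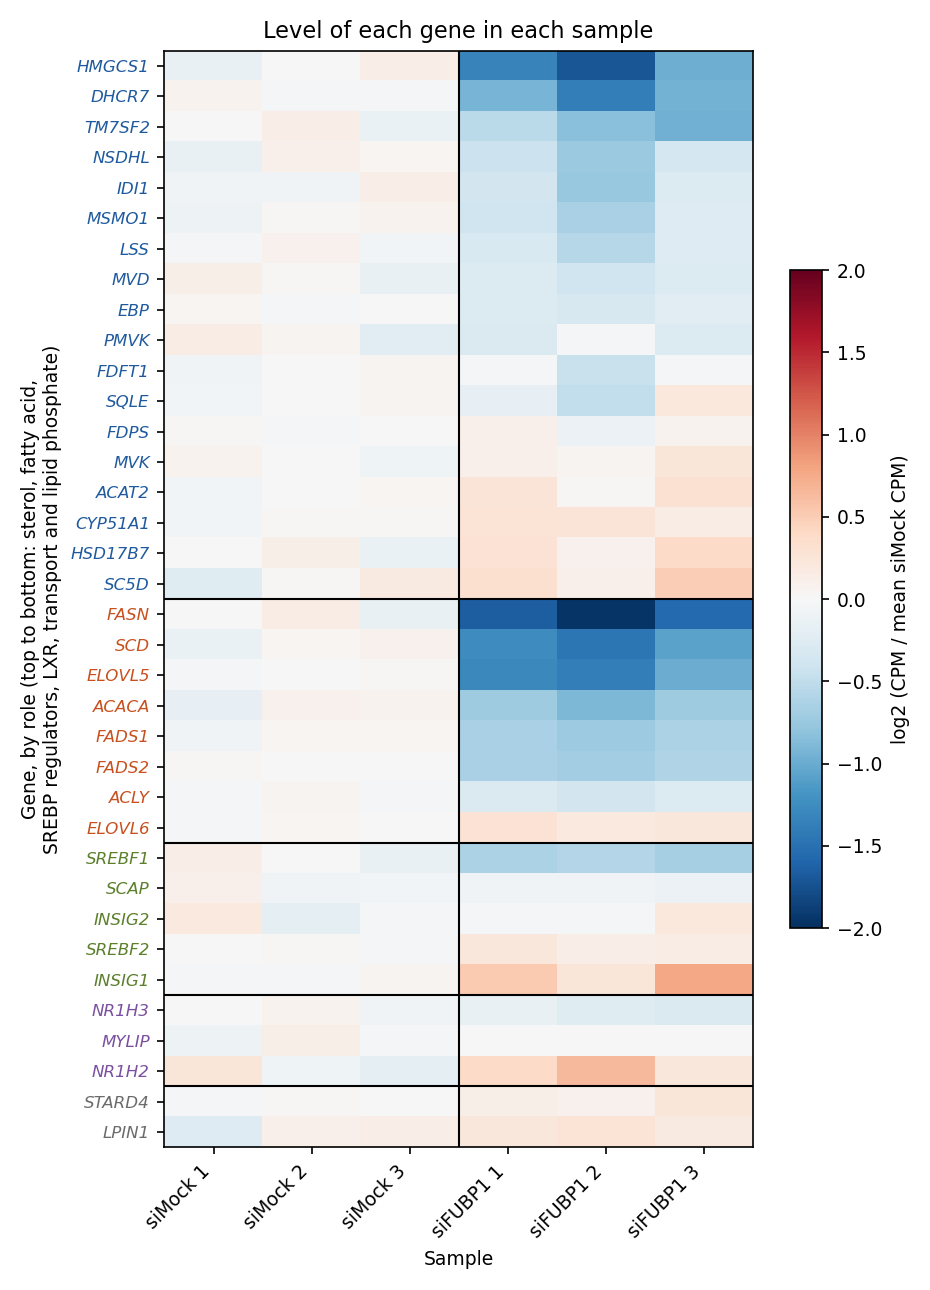
Colours give the log2 ratio of the CPM of each gene in each sample to the mean siMock CPM of that gene, with genes in rows by role and the 6 samples in columns. The fatty acid rows except ELOVL6 are blue in all siFUBP1 columns, and the siFUBP1 replicate 2 column is the darkest blue for most sterol and fatty acid rows.

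Other genes of lipid metabolism, listed by pathway, moved in both directions as well. Of 19 tested fatty acid synthesis genes outside the 36, 9 were lower and 4 were higher (median log2 fold change -0.30, or -0.13 after the GC and length correction), where 30.1% of all tested genes were called in each direction. ELOVL3, an elongase of saturated and monounsaturated very long chain fatty acids, and TECR, the reductase that ends each elongation cycle, were lower at -1.98 and -1.17, whereas ME1, the malic enzyme that supplies NADPH, was higher at 1.05. Of 12 tested glycerolipid synthesis genes 8 were lower and 3 were higher (median -0.43). They included DGAT1, which makes triglyceride, at -1.32, and LPCAT3, which places polyunsaturated chains in phospholipids, at -1.05. Of 4 tested acyl-CoA synthetases 2 were lower and none was higher (median -0.35).

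On the sterol side, 6 of 12 tested trafficking, storage and efflux genes were lower and 3 were higher (median -0.29, or -0.11 with 5 lower and 4 higher after the GC and length correction). For this list and those that follow, 30.1% of all tested genes were lower and 30.1% were higher by the same rule before that correction. NPC2, the lysosomal cholesterol carrier, was at 153.6 to 171.1 CPM in siMock and 37.65 to 52.87 CPM in siFUBP1 (log2 fold change -1.81), and ABCA1, the cholesterol efflux pump and an LXR target, was at 63.18 to 89.45 CPM and 27.21 to 28.83 CPM (-1.49). Of 9 tested genes of SREBP processing and sterol-sensed degradation 5 were lower and 3 were higher (median -0.23). After the GC and length correction 6 were lower and 3 were higher (median -0.29). Among the genes higher before correction was ERLIN2, an endoplasmic reticulum lipid raft protein, at 1.25. In the isoprenoid branch, which leaves the mevalonate pathway before squalene, 5 of 10 tested genes were higher and 1 was lower (median 0.17; 4 and 3 after the GC and length correction, median 0.07), with PDSS2, of ubiquinone side chain synthesis, at 1.42. Each named gene of these lists passed the edgeR test, with LPCAT3 having the highest adjusted p at 1.0e-08.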

How the data were processed

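Poly-A RNA of 3 siMock and 3 siFUBP1 samples was used, grouped by the labels. The authors deposited whole-number counts per gene and FPKM computed from them with the listed gene lengths. HISAT2 2.0.5, StringTie 1.3.3b, featureCounts 1.5.0-p3 and DESeq2 1.16.1 are listed in the submitters' processing notes. Strand and multi-mapping settings were not given in the sources used here. All 58735 identifiers and coordinates matched GENCODE 29 (GRCh38). The 5 columns of the authors' own comparison (fold change and p-values) were not used.

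Counts were filtered with filterByExpr, scaled by TMM and tested across 16116 genes with the edgeR 4.0.16 quasi-likelihood test (R 4.3.3), with Benjamini-Hochberg adjustment; CPM are counts per 1e6 of the TMM-scaled library size. FPKM were used for levels between genes. Replicates are separate samples by the labels only, so p-values measure the spread between these samples, which may be technical. The 36 genes, the roles and the wider lists were chosen with earlier results of these data known. Named genes were the 36, the listed pathway genes beyond a log2 fold change of 1 with a mean of at least 100 counts, the cell type markers, and FUBP1. Alternatives were other scalings and filters, DESeq2 1.42.0, limma 3.58.1 on log2(FPKM + 1) and log2(FPKM + 0.1), offsets from loess trends of each sample over GC content and gene length (span 0.3, fitted on genes averaging 50 counts or more), a replicate block, and each sample left out. The tests were tested on simulated data with 200 changed genes, called at an adjusted p below 0.05 and beyond a log2 fold change of 1. Recovery was 99% with edgeR, 95.5% with DESeq2 and 71.5% with limma, each with 0 false calls. How well changes within a log2 fold change of 1 are recovered, where most of the 36 genes lie, was not tested. When a trend rising with GC content was added, edgeR recovered 87.5% with 124 false calls, and 99% with 1 false call after the correction. The size of that trend was set and not fitted to these data, where the fold change fell with GC content. Depth was 16309900 to 17484313 counts per sample, which limits the precision of genes with few counts.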

Additional observations from a re-analysis of the deposited data

How the results depend on the processing

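Of the 18 genes called lower, 15 kept their call in all 16 alternatives; MVD and LSS lost it under the GC and length correction, with and without the replicate block, and NR1H3 lost it there and elsewhere. Of the 6 called higher, INSIG1 and NR1H2 kept the call throughout, and ACAT2, HSD17B7, SC5D and ELOVL6 did not. Of the 36 genes, 10 were higher under upper-quartile scaling, which moved the median of all tested genes from 0.002 to 0.04, and 3 to 6 with each sample left out, the count of 3 arising on leaving out replicate 1 of either group or replicate 3 of siFUBP1. The sterol median was -0.16 under the GC and length correction and -0.31 to -0.23 with each sample left out. The fatty acid median was -0.64 under that correction, -0.64 with the replicate block added to it, and -0.78 to -0.67 with each sample left out. Directions turned in 6 genes, none of which had passed the test: INSIG2 to -0.19 (-0.19 with the block), SCAP to 0.22 (0.22) and STARD4 to -0.0514 (-0.0502) under the GC and length correction. MYLIP turned to 0.0415 under upper-quartile scaling, 0.0065 under DESeq2, 0.014 without a filter, 0.0026 at a mean of at least 50 counts, 0.0076 and 0.0094 with limma and 0.0004 with the replicate block. With each sample left out, MYLIP ranged from -0.0546 to 0.0591, INSIG2 from -0.0338 to 0.15, FDPS from -0.0089 to 0.10 and SQLE from -0.32 to 0.0401. The causes were not tested. The replicate numbers did not pair the samples (correlations of same-numbered samples -0.0047, 0.017 and 0.12); with the replicate block 18 genes were lower and 8 higher, the added calls being SREBF2 and LPIN1. LPIN1 also passed under the GC and length correction (0.30, edgeR adjusted p = 0.011), under upper-quartile scaling and without siMock replicate 3, and stood at 0.11 without siMock replicate 1.

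Over all tested genes the fold change fell with GC content, so values of GC-rich genes such as FASN, MVD, SREBF1 and SCAP depend on how that trend is treated. With 3 samples a group, a change must exceed the spread between these samples: SEs of the 36 genes were 0.0740 to 0.183 on the log2 scale. Counting intervals would cover counting error only.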

Other observations

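Some of the 36 genes share exonic bases with a neighbour on the opposite strand, and the strand setting of the counting was not given. Part of their counts could belong to the neighbour, or reads in shared bases could have been left out. ACAT2 shared 397 bases with TCP1, which had 3925 to 4698 counts per sample. It also shared 1141 bases with SOD2 and 1458 with SOD2-OT1 (26.5% and 33.9% of its exonic bases), each with 2 or fewer counts in every sample. SREBF1 shared 556 bases with RAI1, NR1H3 shared 189 with ACP2, MVK shared 306 with MMAB, FDPS shared 693 with RUSC1-AS1, and FADS1 and FADS2 shared 490 with each other. On the same strand, CYP51A1 shared 2844 bases, 79.4% of its exonic bases, with the gene AC000120.2. That neighbour had 0 counts in every sample. How reads in shared bases were counted was not given, so the level and change of CYP51A1 may rest on a small part of the gene. HMGCS1 shared 703 bases with an antisense gene, AC114947.2, with 29 to 38 reads in the siMock samples and 6 to 20 after knockdown, against 1428 to 4614 for HMGCS1. Processed and unprocessed pseudogene copies were counted little: HSD17B7P2 had 27 to 39 counts per sample, CYP51A1P2 had 17 to 27, and SCDP1 had 7 or fewer.

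Matches to the seeds of the FUBP1 siRNAs were counted in the GENCODE 29 3-prime UTR of 1 transcript for each gene. RNAi#1 had a seed match in 6 of the 36 genes, RNAi#2 in 5 and RNAi#3 in 6, where 17.6%, 11.2% and 18.6% of 18986 genes held one. ELOVL5 held 3 matches of RNAi#1, 2 of them with the added base that makes a longer match, and 1 of RNAi#2; Of the other genes lower beyond a log2 fold change of 1, SCD and DHCR7 each held 1 of RNAi#1, HMGCS1 held 1 of RNAi#2 and 1 of RNAi#3, and FASN held none. INSIG1, which was higher, held 1 of RNAi#1. Among the other genes called higher, ELOVL6 held 2 of RNAi#2 and 1 of RNAi#3, SC5D held 1 of RNAi#3, and ACAT2, HSD17B7 and NR1H2 held none. Among the genes lower by less, FADS1 held 2 of RNAi#2 and NSDHL held 1 of RNAi#3. ACACA, ACLY, EBP, FADS2, IDI1, LSS, MSMO1, MVD, NR1H3, SREBF1 and TM7SF2, which were lower, held none. The longer match was held by 2 of the 36 genes for RNAi#1 (ELOVL5 and INSIG1), against 3.9% of all genes. It was held by 3 for RNAi#3 (HMGCS1, NSDHL and STARD4), against 10.6%, and by 0 for RNAi#2, against 2.1%. Which siRNA was sequenced was not given, and an effect through seeds was not tested.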
